A study of Mus musculus with 13 samples.

Results

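Large cell G2 is a single mouse B cell, caught in well G2 of a microfluidic chip and sequenced as 1 of the 5 large cells of the study. It is 1 of 13 libraries, which came from 10 single cells (5 large, 5 small) and 3 controls. Its low RNA content was known when it was chosen, so that trait is described here and not discovered. Its transcriptome is set here against those of the large cells C1, E1 and E3, the 3 other large cells that the study kept. The large cell C3 was omitted by the study for its low correlation with the other libraries, and its values are given only beside the comparison. All cells were naive B cells purified with magnetic beads from spleens of untreated C57BL/6 wild type mice, 6 to 8 weeks old. They had been stimulated in culture for 24 h with 250 nM CpG ODN 1668 (the protocol of the samples gives the same figure in ng/ml). The 5 small cells (A2, C12, C7, F7 and H1) had the same treatment, and all cells were stained as viable before lysis on the chip. The question of the study was what sets growing cells apart from cells that stay small. G2 stood on the large side by volume, and the comparison asks whether its RNA does. Neither a mouse nor a culture is named for any cell. Since 1 cell stands alone on its side, there is no replicate check of any difference, and neither p-values nor standard errors are given.

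CpG oligonucleotides are sensed by TLR9 in the endosome, and the signal passes through MyD88 to the NF-κB family of transcription factors. A naive B cell that responds first grows, by building ribosomes, enzymes and nucleotides. It then replicates its DNA and divides. A resting B cell holds little RNA and spends much of it on antigen presentation and on the antigen receptor, which are the functions it keeps ready.

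G2 held less RNA than any other cell by the spike-in scale. The authors added the same amount of synthetic RNA to each chamber and derived from it a factor by which each cell's read counts are multiplied. This factor was 0.0998 in G2, against 1 in C1, 0.445 in E1 and 0.397 in E3. G2 had 5588852 gene counts (95% Poisson interval 5584219 to 5593487), against 4043241 in C1, 6311782 in E1 and 5989527 in E3. Counts times the factor, the measure of RNA per cell, came to 557519 in G2, against 4043241 in C1, 2806503 in E1 and 2376600 in E3. This was 0.181 of the mean of the 3 other large cells, and it lay below every one of them. C3 stood at 837532, and the small cells at 978523 to 4867987. By volume, G2 was large: its volume was 3.59 times that of A2, the smallest cell sequenced, against 4.54 in C1, 4.54 in E1 and 3.79 in E3. Small cells ranged up to 1.36. Normalized counts per unit of volume were 155349 in G2, against 890116 in C1, 617849 in E1 and 627067 in E3. Poisson intervals cover counting error only, since PCR copies were not marked with molecular identifiers, and the error of the factor itself is not known. Less RNA in the cell and less RNA recovered from it cannot be told apart in 1 cell.

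**Figure D1:**
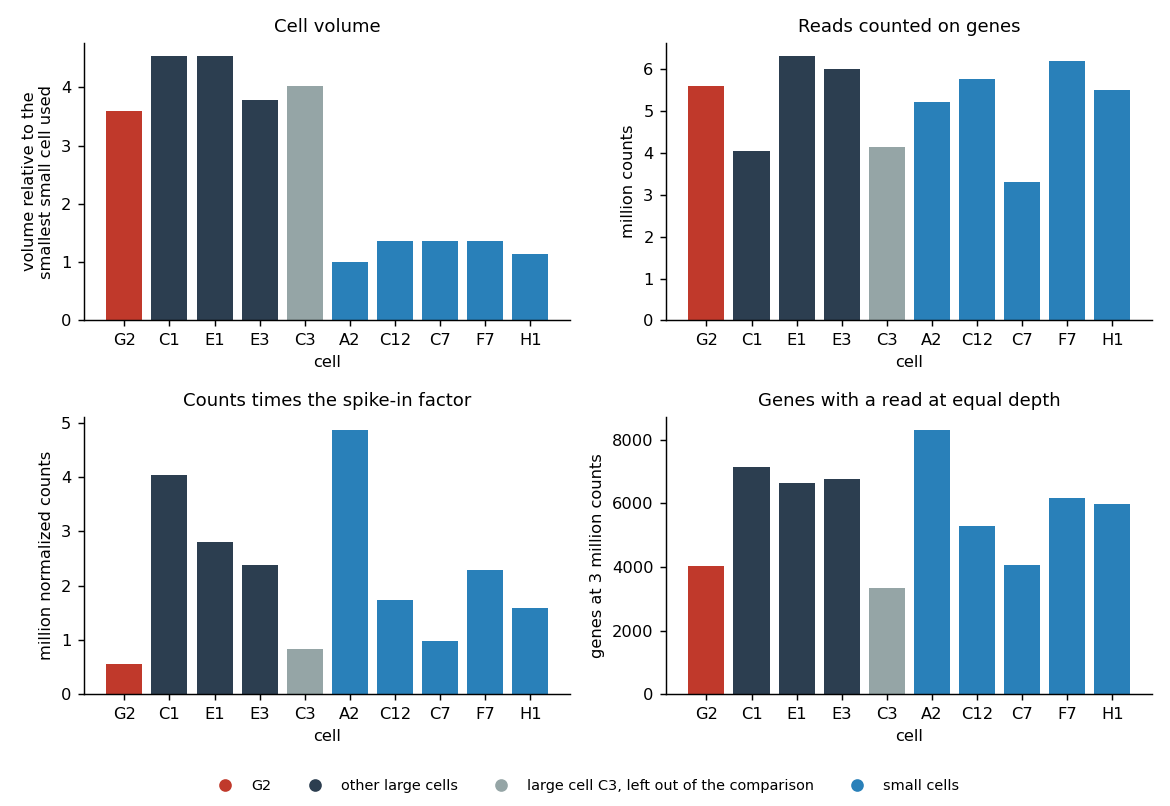
Bars give for each cell, named on the x axis, its relative volume, its gene counts, its counts times the spike-in factor, and the number of genes with a read after thinning to 3000000 counts (y axes). G2 has a volume of 3.59 and gene counts within the range of the other large cells, but 557519 normalized counts and 4029 genes.

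Fewer genes were detected in G2. With each cell thinned to 3000000 counts, 4029 genes had a read in G2, against 7138 in C1, 6629 in E1 and 6754 in E3. The small cells ranged between 4054 in C7 and 8302 in A2, and C3 had 3353. At a fixed level of 50 CPM (the count of a gene per 1000000 of a cell's own counts), G2 held 1565 genes, against 3090 in C1, 2814 in E1 and 2845 in E3. At 500 CPM the order was the other way, with 536 genes in G2, against 412, 424 and 432 in C1, E1 and E3. The 100 most abundant genes took 38.5% of the counts of G2, against 23.9% in C1, 28.4% in E1 and 28.0% in E3. Fewer genes thus held most of the RNA of G2. The rule by which the study calls a gene on, an adjusted count above 300, reads these cells at different levels. It takes 2005 reads or 359 CPM in G2, against 49.5 CPM in C1, 71.3 CPM in E1 and 84.2 CPM in E3.

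Loss of detection reached genes that were abundant in the other large cells. Of the 1230 genes at 50 CPM or more in each of C1, E1 and E3, 642 (52.2%) were below that level in G2, and 360 of them had no read there. Of the 123 genes with a mean of 1000 CPM or more in C1, E1 and E3, G2 had a read for 112, or 91.1% (exact binomial interval 84.6 to 95.5%). In the bin between 100 and 300 CPM, it had a read for 860 of 1672 genes (51.4%). The small cell C7 lay below G2 in each bin, for instance at 50.5% between 100 and 300 CPM, and the small cell A2 reached 92.3% there. These bins use full depth, which was 3311235 counts in C7 and 5588852 in G2. At equal depth C7 had slightly more genes than G2, 4054 against 4029. C3 lay below G2 in all 5 bins.

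**Figure D2:**
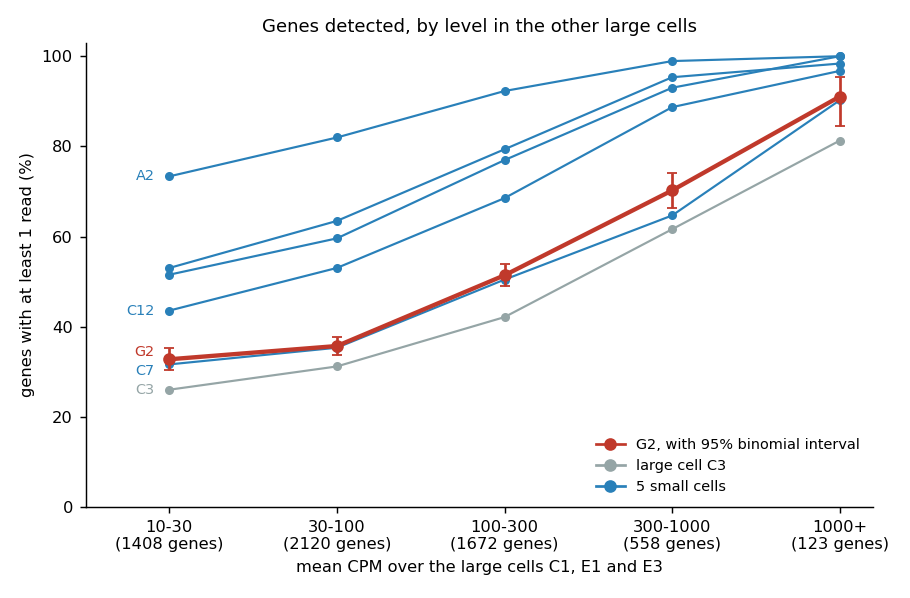
Percent of genes with at least 1 read at full depth (y axis) by mean CPM in C1, E1 and E3 (x axis, 5 bins with the number of genes), for G2, C3 and the small cells. The error bars on G2 are exact 95% binomial intervals; G2 is at 51.4% and C7 at 50.5% between 100 and 300 CPM.

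To tell a low amount of RNA from a changed makeup, each gene was compared on both scales. The 5066 genes with a mean of at least 20 CPM over the 4 large cells entered. A gene was called higher if its value in G2 was above that in each of C1, E1 and E3 and at least 4-fold their mean, after adding 10 CPM on the first scale or 100 normalized counts on the second. Lower was defined in the same way. By CPM, 571 genes (11.3%) were higher and 1858 (36.7%) were lower. On the spike-in scale, 87 (1.72%) were higher and 1422 (28.1%) lower. All 87 were also higher by CPM, and 1172 of the 1422 were also lower by CPM. The median log2 ratio over the 5066 genes was -2.48 by CPM and -1.63 on the spike-in scale. G2 had no read for 2455 of these genes (48.5%), against 801 in C1, 894 in E1 and 906 in E3. Over the 2611 genes with a read in G2, the medians were -0.26 by CPM and -1.32 on the spike-in scale. With a count of 0 taken as 3 counts, in each library, and no constant added, the medians over the 5066 genes were -6.10 and -8.56. The added constants thus pull genes with low counts toward 0, more so on the spike-in scale. Medians of the same genes on both scales therefore do not compare in size. Of the 571 higher genes, 336 entered only through G2. With G2 set to 0, their mean over the 4 large cells would have been below 20 CPM. With the filter on C1, E1 and E3 alone, 268 of the 571 stayed higher. Where the lists below count genes that entered only through G2, their calls followed largely from the filter. Among the 4 large cells, G2 was the lowest for 2074 genes, against 513 to 545 for each of the others, and the highest for 981, against 1268 to 1491. Both scales read the same counts, so they are not independent evidence. The 28 gene lists and the lists of cell markers below were drawn up with earlier results of these cells known, and for each the same counts and medians are given. Of the 28 lists, 7 had a median above 0 by CPM and 1 on the spike-in scale.

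**Figure D3:**
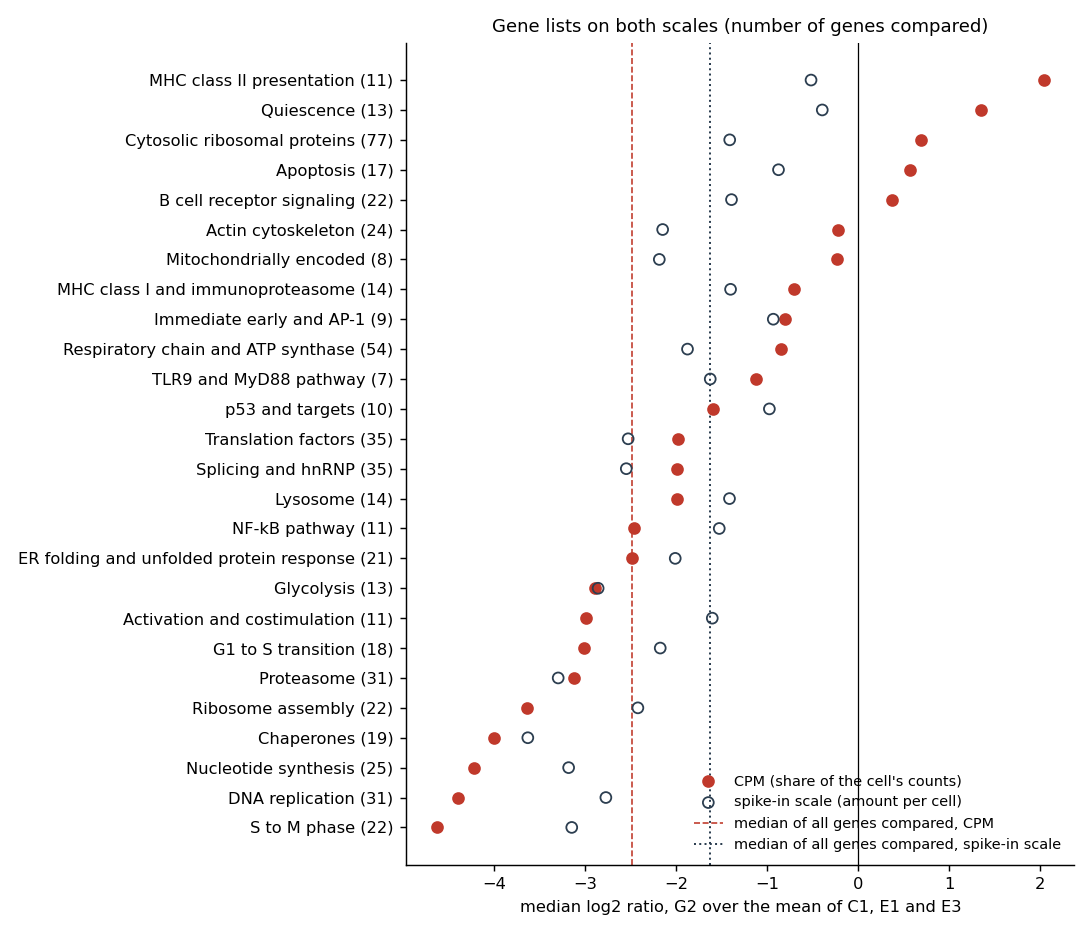
Median log2 ratio of G2 over the mean of C1, E1 and E3 (x axis) for the 26 lists with at least 5 genes compared (y axis, number of genes in brackets), by CPM (filled) and on the spike-in scale (open). Dashed and dotted lines give the medians over all 5066 genes, -2.48 and -1.63; S to M phase lies lowest by CPM at -4.63 and MHC class II highest at 2.04.

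Genes of the cell division cycle were nearly absent in G2. The list of S to M phase genes had 22 genes compared, of which 19 were lower and 0 higher by CPM, and the same on the spike-in scale. Its median was -4.63 by CPM and -3.15 on the spike-in scale. With counts of 0 taken as 3 counts and no constant, it was -8.79 and -11.36. G2 had 14 reads in all on this list, against 45062 in C1, 54049 in E1 and 44653 in E3. Their share of counts was 0.000250% in G2 (exact interval 0.000137 to 0.000420%), against 1.11%, 0.856% and 0.746% in C1, E1 and E3. Top2a, the topoisomerase that untangles chromosomes, had 1.79 CPM in G2, against 1826 in C1, 3568 in E1 and 2383 in E3. Mki67, the proliferation antigen Ki-67, had 0.537 CPM (3 reads) in G2, against 708 in C1, 1085 in E1 and 2190 in E3. The mean of the other large cells was thus 2473-fold that of G2, with a counting interval of 846 to 11991. Cdk1, the kinase that drives mitosis, had no read in G2, against 404 CPM in C1, 106 in E1 and 311 in E3. Cyclin B1 (Ccnb1), its partner, had no read either, against 1047, 39.6 and 269 CPM. A count of 0 allows up to 0.537 CPM in G2 by counting error alone. Fold limits given below for genes without a read rest on this and do not cover transcripts missed at capture. With C3 kept among the reference cells, 4 of 21 were lower, with a median of -4.27. Among the small cells, C7 had no read on the whole list and C12 had 0.0474% of its counts there, against 0.394 to 1.05% in A2, F7 and H1. C3 had 0.0656%.

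The promoters of Top2a and Mki67, the genes of this list with the largest differences, are shown because many genes of division share the same elements there. CCAAT is the letters read by the factor NF-Y, and TTTGAA is the cell cycle homology region, known to keep such genes silent in resting cells. The 250 bases before each start, from RefSeq on GRCm38.p6, are written in the direction of transcription. Capitals mark CCAAT and TTTGAA on either strand, and TTTNGCGC, an E2F site, was searched too, with overlaps allowed.
Top2a: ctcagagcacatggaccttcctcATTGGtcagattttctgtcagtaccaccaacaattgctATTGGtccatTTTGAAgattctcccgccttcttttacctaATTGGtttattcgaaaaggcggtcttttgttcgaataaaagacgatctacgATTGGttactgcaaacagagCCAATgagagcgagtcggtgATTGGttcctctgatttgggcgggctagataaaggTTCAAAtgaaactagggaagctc
Mki67: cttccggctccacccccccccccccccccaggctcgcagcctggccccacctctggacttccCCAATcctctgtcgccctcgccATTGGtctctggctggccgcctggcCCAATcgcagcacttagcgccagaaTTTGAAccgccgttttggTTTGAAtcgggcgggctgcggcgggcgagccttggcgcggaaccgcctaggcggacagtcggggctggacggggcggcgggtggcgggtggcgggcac
The stretch of Top2a is chr11:99024190-99024439 and that of Mki67 is chr7:135716380-135716629, both on the minus strand. Top2a held 6 matches to CCAAT and 2 to TTTGAA, and Mki67 held 3 and 2. Neither held TTTNGCGC. Of the 19 list members in the RefSeq table, 8 (42.1%) held both CCAAT and TTTGAA, against 5.73% of all 27025 promoters of that length. CCAAT alone was in 16 of the 19 (84.2%), against 34.5% of all. It was also in 8 of 10 genes of MHC class II presentation, a list with the opposite difference, of which 0 held TTTGAA. A match to such letters is a description and not a bound site.

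DNA replication was low as well. Of 31 genes compared, 18 were lower and 1 higher by CPM. Their median was -4.40 by CPM and -2.77 on the spike-in scale. With 0 taken as 3 counts and no constant, it was -8.74 and -11.11. Rrm2, a subunit of ribonucleotide reductase, had no read in G2, against 345 CPM in C1, 1962 in E1 and 1739 in E3. Mcm4, part of the replicative helicase, had none either, against 362, 1137 and 1390 CPM. Taking 3 reads as the limit of counting, Rrm2 was at least 2512-fold and Mcm4 at least 1794-fold lower in the reads of G2. Pclaf, a partner of the sliding clamp PCNA, also had no read. Gins4, of the same helicase complex, went the other way with 282 CPM in G2, against 0.495, 0 and 2.50 CPM in C1, E1 and E3. It entered only through its level in G2. Nucleotide synthesis had 17 lower and 0 higher genes of 25, with a median of -4.23 by CPM and -3.18 on the spike-in scale. It included Tyms, the thymidylate synthase, with no read in G2, against 585, 538 and 506 CPM. In the G1 to S list, 11 of 18 were lower and 0 higher, with a median of -3.01 by CPM and -2.18 on the spike-in scale. With C3 kept among the reference cells, 3 of 31 genes of DNA replication, 4 of 25 of nucleotide synthesis and 4 of 18 of the G1 to S list were lower. Cdk6, a kinase that starts the cycle, had 1.07 CPM in G2, against 1379 in C1, 1214 in E1 and 365 in E3.

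Several lists of the machinery of growth had more lower genes than the 36.7% of all genes compared, and others did not. Chaperones held 0.457% of counts in G2, against 2.42% in C1, 3.01% in E1 and 1.99% in E3, and 13 of 19 were lower and 0 higher by CPM. Their median was -4.00 by CPM and -3.63 on the spike-in scale. Tcp1, Cct3 and Cct6a, subunits of the ring that folds actin and tubulin, had no read in G2, against 448 to 1814 CPM for the same genes in C1, E1 and E3. Ribosome assembly had 13 of 22 genes lower and 1 higher, with a median of -3.64 by CPM and -2.42 on the spike-in scale. Nop56, of the small nucleolar particles that modify rRNA, had 0.179 CPM (1 read) in G2, against 954, 655 and 691 CPM, a 4283-fold difference with a counting interval of 769 to 169176. Proteasome subunits had 18 of 31 lower and 1 higher, with medians of -3.12 and -3.30. With C3 kept among the reference cells, 3 of 19 chaperones and 3 of 22 ribosome assembly genes were lower, and the share of chaperones in C3 was 0.144%. Glycolysis had 5 of 13 lower and 0 higher, with medians of -2.89 and -2.86. Its share of lower genes (38.5%) was near that of all genes, and with C3 kept 0 of 13 were lower. Ldha, which turns pyruvate into lactate, had no read in G2, against 2073 CPM in C1, 1976 in E1 and 1599 in E3. By the limit of 3 reads, it was at least 3507-fold lower. Canx, the ER chaperone calnexin, had 7 reads or 1.25 CPM in G2, against 4569 CPM in C1, 1351 in E1 and 2639 in E3, the largest ratio among the lower genes once 10 CPM is added. Eif5a, which helps ribosomes elongate, had no read in G2, against 2932, 1117 and 1043 CPM. The list of translation factors as a whole had 16 of 35 lower and 2 higher, with medians of -1.98 and -2.53. Splicing factors and hnRNPs had 17 of 35 lower and 1 higher (medians -1.99 and -2.55), and ER folding had 8 of 21 lower and 0 higher (medians -2.48 and -2.01). For these 3 lists the median by CPM was near or above that of all genes. Myc, a driver of growth, had no read in G2, against 320, 142 and 218 CPM. Further genes at the low end (Ran, Cnbp, Cse1l and Bzw1) had 0 to 1.61 CPM in G2, against 604 to 1613 CPM in the other large cells. Ran and Cse1l serve nuclear transport, and for Ran, with 3 reads in G2, the others were 2260.1-fold higher (counting interval 773 to 10959).

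Ribosomal proteins took a larger share of counts in G2 than in C1, E1 and E3. The listed mitochondrial transcripts had a share within the range of those cells. On the spike-in scale the amounts of both were lower. All 77 cytosolic ribosomal protein genes compared had reads in G2, and 0 were called in either direction by CPM. They took 7.87% of its counts (interval 7.85 to 7.89%), against 4.49% in C1, 5.31% in E1 and 4.81% in E3. Their median was 0.69 by CPM, with single genes between -1.03 and 1.84 and 67 of 77 above 0. On the spike-in scale the median was -1.41 and 9 genes were lower. The same genes held 7.52% of counts in C7 and 7.23% in H1. Ribosomal protein genes have near-identical copies in the genome, so their single values are uncertain. Mitochondrially encoded genes held 2.12% in G2, against 1.75%, 1.84% and 2.82% in C1, E1 and E3, with 0 of 8 called and a median of -0.23. The cytochrome b gene mt-Cytb, for instance, had 7158 CPM in G2, against 3724 in C1, 4697 in E1 and 7237 in E3. The mitochondrial rRNAs, which are not on that list, took 1.99% of counts in G2, against 0.804%, 0.468% and 1.46%. On the spike-in scale 4 of the 8 listed genes were lower, with a median of -2.19, against -1.63 over all genes. With counts of 0 taken as 3 counts and no constant, their median lay above that of all genes, at -2.67 against -8.56. The normalized counts of the list summed to 11820 in G2, against 70822 in C1, 51524 in E1 and 66964 in E3. Nuclear-encoded genes of oxidative phosphorylation had 19 of 54 lower and 2 higher, with medians of -0.85 and -1.88.

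Antigen presentation by MHC class II stood out at the high end. Of 11 genes compared, 6 were higher and 1 lower by CPM, with a median of 2.04 (2.05 with 0 taken as 3 counts). They took 2.45% of the counts of G2 (interval 2.44 to 2.46%), against 0.708% in C1, 0.419% in E1 and 0.368% in E3, and G2 lay above all 3. Cd74, the invariant chain that guides class II molecules to the endosome, had 8185 CPM in G2, against 1411 in C1, 1543 in E1 and 1540 in E3. H2-Aa, the alpha chain of I-A, had 7267 CPM in G2, against 1775, 843 and 321 CPM, with a log2 ratio of 2.88. H2-Ob, part of the peptide-loading modulator H2-O, had 770.3 CPM in G2, against 120, 0 and 171 CPM. The exception was Lgmn, an endosomal protease, with no read in G2, against 335, 0.158 and 195 CPM. On the spike-in scale 0 of the 11 were higher and 1 was lower, with a median of -0.52. The normalized counts of the list summed to 13671 in G2, against 28623 in C1, 11750 in E1 and 8757 in E3, so that G2 lay within their range. For Cd74 they were 4564 in G2, against 5705, 4329 and 3661. By this measure G2 held about as much class II RNA as the other large cells, within a smaller whole. The small cells C7 (2.63%) and H1 (1.64%) had high class II shares too, and C7 exceeded G2. Without E3 as a reference, 3 of 11 were higher and 3 lower, with a median of 1.77. With the 5 small cells in place of the other large cells, 0 of 12 class II genes were called higher and the median was -0.11.

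The antigen receptor followed the same course in part. Genes of B cell receptor signaling held 2.30% of counts in G2 (interval 2.29 to 2.32%), against 0.718% in C1, 0.559% in E1 and 0.767% in E3. By CPM, 5 of 22 were higher and 5 lower, with a median of 0.37, and on the spike-in scale 0 were higher and 7 lower, with a median of -1.39. The median by CPM was 0.81 without C1, 0.17 without E1 and 0.97 without E3. Cd79b, a signaling chain of the receptor, had 8758 CPM in G2, against 1255 in C1, 1152 in E1 and 446 in E3, a log2 ratio of 3.19. G2 had the highest level of all 10 cells, followed by C7 with 4176 CPM. In normalized counts Cd79b stood at 4883 in G2, against 5076, 3233 and 1059. Btk, a kinase below the receptor, had 1501 CPM in G2, against 53.9, 44.0 and 191 CPM, and Pik3cd, a PI3-kinase subunit, had 1807 CPM, against 87.1, 0.158 and 413 CPM. These were among the genes called higher, and several partners were missing. Plcg2, the phospholipase that Btk activates, had no read in G2, against 346, 132 and 303 CPM. The inhibitory receptors Cd22 and Fcgr2b had none either, against 144 to 555 CPM in the other large cells. Without a read in 1 cell, a gene that was not expressed and a transcript that was not captured cannot be told apart.

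**Figure D4:**
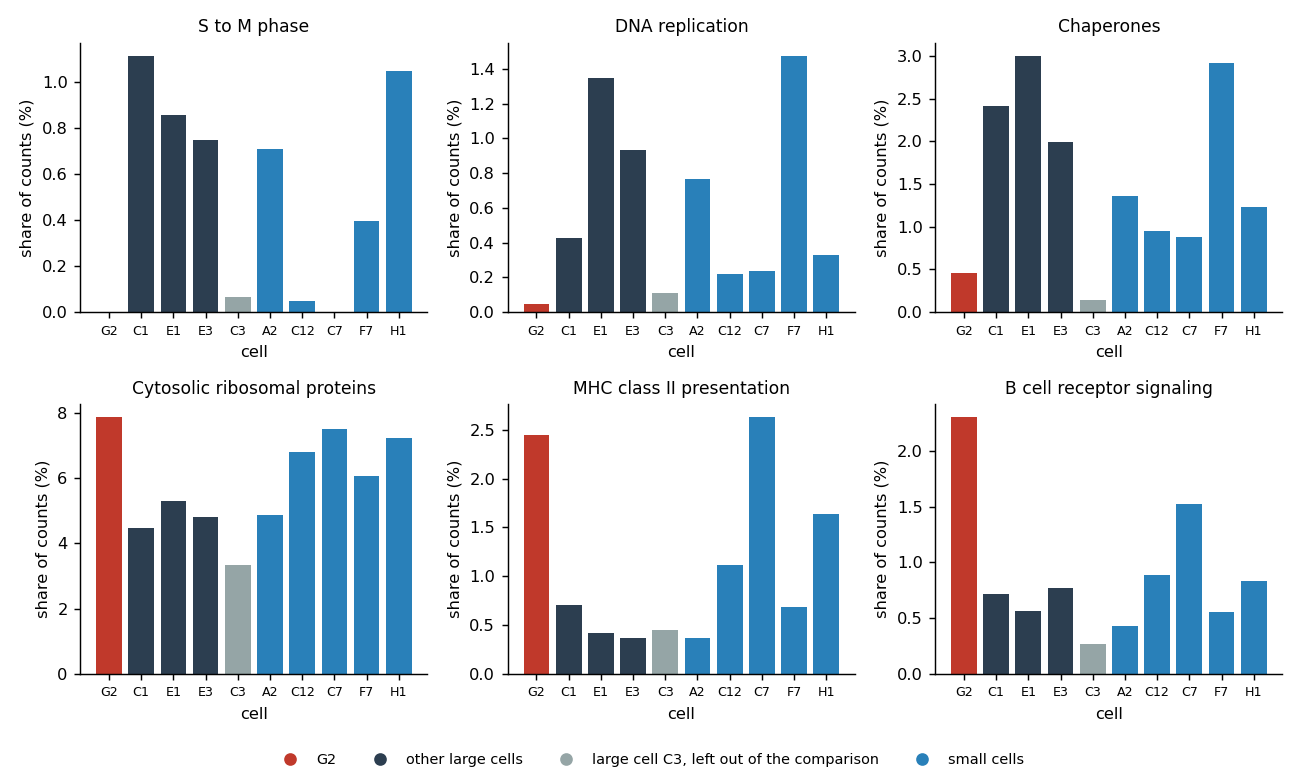
Share of counts in percent (y axes) of 6 gene lists in each cell (x axis). S to M phase is at 0.000250% in G2 and 0 in C7, ribosomal proteins are at 7.87% in G2 against 4.49 to 5.31% in C1, E1 and E3, and MHC class II genes at 2.45% against 0.368 to 0.708%.

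The labelled cell type held for G2. B cell markers took 3.93% of its counts, against 1.14% in C1, 1.14% in E1 and 1.17% in E3, and 7 of 16 were higher and 5 lower by CPM. Their median was 1.12 by CPM and -1.07 on the spike-in scale. The share was 4.12% in C7, above G2, 2.17% in H1 and 1.97% in C12. Cd79a, the partner of Cd79b, had 3911 CPM in G2, against 883, 729 and 865 CPM in C1, E1 and E3. Some markers of mature B cells were low: Ms4a1, which encodes CD20, had 54.0 CPM in G2, against 421 in C1, 2457 in E1 and 3423 in E3. Ebf1, an early B cell transcription factor, had no read, against 1047, 14.9 and 372 CPM. Markers of T cells, NK cells, dendritic cells, neutrophils, erythroid cells and platelets had no read in G2. Adgre1, the macrophage marker F4/80, was the exception. It had 1860.1 CPM (10396 reads) in G2, against 1.73 in C1, 31.2 in E1 and 0 in E3. It entered only through its level in G2, and it was higher on both scales, with log2 ratios of 6.48 and 3.11. Of the 12 genes on the macrophage and monocyte list, only Adgre1 and Csf1r (169 reads) had reads in G2. Lyz2, Cd14, Fcgr1, the C1q genes, Itgam, Cd68, Mertk and Marco were at 0. The list's share of counts was 0.189% in G2, against 0 to 0.00312% in the other 3. Adgre1 also had reads in C3 (452 CPM) and in the small cell C12 (710.3 CPM), and none in A2, C7, F7 and H1.

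Genes tied to quiescence took a larger share of counts in G2 than in C1, E1 and E3, though not than in C3. The quiescence list had 5 of 13 genes higher and 2 lower by CPM, with a median of 1.35. It took 0.848% of counts, against 0.124% in C1, 0.155% in E1 and 0.263% in E3. The share was 1.2% in C3, 0.652% in C7 and 0.479% in H1. On the spike-in scale 2 were higher and 0 lower, and the median was -0.39. Btg2, an inhibitor of proliferation, had 1504 CPM in G2, against 27.2, 55.6 and 1.84 CPM, and was higher on both scales. Rgs2, which shortens G protein signals, had 907 CPM, against 0, 24.2 and 0 CPM, and was also higher on both. Rgs2 and Klf4, both among the higher genes of the list, entered only through their level in G2. Btg1, a relative of Btg2, had 2470.1 CPM in G2, against 389, 12.2 and 730.1 CPM, and was higher by CPM only. Txnip and Foxo3 of the same list were lower, with 0.537 and 0 CPM in G2. The immediate early list was split, with 3 of 9 higher and 2 lower by CPM, and medians of -0.80 and -0.93. Egr1, an early response factor, had 1749 CPM in G2, against 243, 0 and 0.334 CPM.

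The NF-κB and survival genes showed no common direction. In the NF-κB list 2 of 11 were higher and 2 lower by CPM, with a median of -2.46, close to that of all genes, and -1.53 on the spike-in scale. Relb, of the noncanonical arm, had 336 CPM in G2 and no read in C1, E1 or E3, but 3170.2 CPM in C3. It entered only through its level in G2, so that its call was fixed by the filter. Nfkbie, an inhibitor of NF-κB, had 1544 CPM in G2, against 1.24, 149 and 0 CPM. Tbk1, a kinase of innate signaling, was lower with no read in G2, against 125, 186 and 321 CPM. In the TLR9 and MyD88 list 2 of 7 were higher and 1 lower, with medians of -1.12 and -1.63. Irak2, among the higher ones, entered only through its level in G2. Unc93b1, the chaperone that carries TLR9 to the endosome, had 2652 CPM in G2, against 788, 474 and 406 CPM. Of 17 apoptosis genes, 4 were higher and 3 lower by CPM, with medians of 0.57 and -0.88, and 0 were higher on the spike-in scale. The higher ones were Bcl2l1, Mcl1 and Birc3, which protect from death, and Fadd, an adaptor of death receptors. Bcl2l1 had 177 CPM in G2, against 0, 0.158 and 0 CPM, and Birc3 had 802 CPM, against 0.495, 117 and 1.17 CPM. Bcl2l1 entered only through its level in G2, so that its call was fixed by the filter. The median of the apoptosis list by CPM lay between 0.25 without C1 and 1.68 without E1, with 1.18 without E3. The p53 list had 3 of 10 higher and 2 lower, with medians of -1.60 and -0.98. Gadd45a, among the higher ones, entered only through its level in G2. Without E3 the median of the list by CPM was 1.06, so that its sign rests on that cell, and without C1 it was -0.94. In the list of activation and costimulation, 4 of 11 were lower and 0 higher, with medians of -2.99 and -1.60. This share of lower genes (36.4%) was near the 36.7% of all genes. Cd44, an adhesion receptor raised on activated lymphocytes, had 3.22 CPM in G2, against 1298 in C1, 1126 in E1 and 152 in E3. Cd83, an activation marker, had no read, against 31.9, 427 and 1232 CPM. Tnfrsf13b, the receptor TACI, had 29.3 CPM, against 575, 1443 and 1774 CPM.

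The remaining lists gave few calls or calls both ways. Genes of MHC class I and the immunoproteasome had 2 of 14 higher and 3 lower (medians -0.70 and -1.40). The sign of the median by CPM depended on the reference cells, being 0.13 without C1, 0.39 without E3 and -1.20 without E1. The list held the nonclassical gene H2-T23, at 2511 CPM in G2, against 147, 11.2 and 16.5 CPM. Actin cytoskeleton genes had 1 of 24 higher and 6 lower (medians -0.22 and -2.15), and lysosomal genes 1 of 14 higher and 5 lower (medians -1.99 and -1.41). The 2 nuclear noncoding RNAs compared were not called by CPM (medians 0.01 and -2.23). Irf9 was the single gene compared of 20 in the interferon response list. It entered only through its level in G2, so that its call was fixed by the filter. It had 227 CPM in G2, against 0, 0.792 and 0 CPM, and 449 CPM in C7. In the plasma cell list, 2 of 5 were higher and 0 lower by CPM, with medians of -2.34 and -1.10. Only 2 of the 5 had a log2 ratio by CPM above 0. Prdm1, the factor Blimp-1 that commits B cells to secretion, had 721 CPM in G2 and no read in C1, E1 or E3, at least 972-fold lower by a limit of 3 reads. Prdm1 too entered only through its level in G2, so that its call was fixed by the filter. Mzb1, an ER protein of antibody-secreting B cells, had 2796 CPM in G2, against 381, 712 and 586 CPM. The plasma cell markers Sdc1 and Jchain had no read in G2. The small cell C12 had 603 CPM of Prdm1 and 2271 CPM of Mzb1.

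The genes that were highest in G2 relative to the other large cells were of many kinds. Apart from an immunoglobulin gene, they were led by Ipcef1, a binding partner of cytohesins, with 2135 CPM (11931 reads) in G2 and no read in C1, E1 or E3. Apoe, the lipid carrier apolipoprotein E, had 1759 CPM in G2 and also no read in the 3 others, but 526 CPM in C7. By the limit of 3 reads, they were at least 2877-fold and 2371-fold higher. Wwp1, a ubiquitin ligase, had 2913 CPM in G2, against 0, 20.8 and 0 CPM. Ndrg3 had 2482 CPM in G2, against 0, 0.317 and 21.4 CPM, and 1587 CPM in C7. Dnm1l, which divides mitochondria, had 2372 CPM in G2, against 4.2, 4.44 and 23.4 CPM. Coq8a, a factor of coenzyme Q synthesis, had 1716 CPM in G2, none in the other large cells, and 770.3 CPM in C12. Sh3bgrl2, with 1684 CPM, had no read in any other cell. Fbxl20, Gbp9, Etaa1, Gtpbp2 and Apex2 completed the 12, with 1607 to 1845 CPM in G2, against 0 to 11.9 CPM in C1, E1 and E3. All 12, and Dnm1l, were higher on both scales, the spike-in ratios of the 6 largest (Igkv1-99, Wwp1, Ipcef1, Ndrg3, Dnm1l and Apoe) being between 3.43 and 4.45. All of them entered only through their level in G2, so their calls by CPM followed largely from the filter. With the filter on C1, E1 and E3 alone, 17 genes were higher on the spike-in scale. Of the 1565 genes at 50 CPM or more in G2, 148 reached that level in no other of the 10 cells. The same count was not made for the other cells, so it is not shown to be particular to G2.

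**Figure D5:**
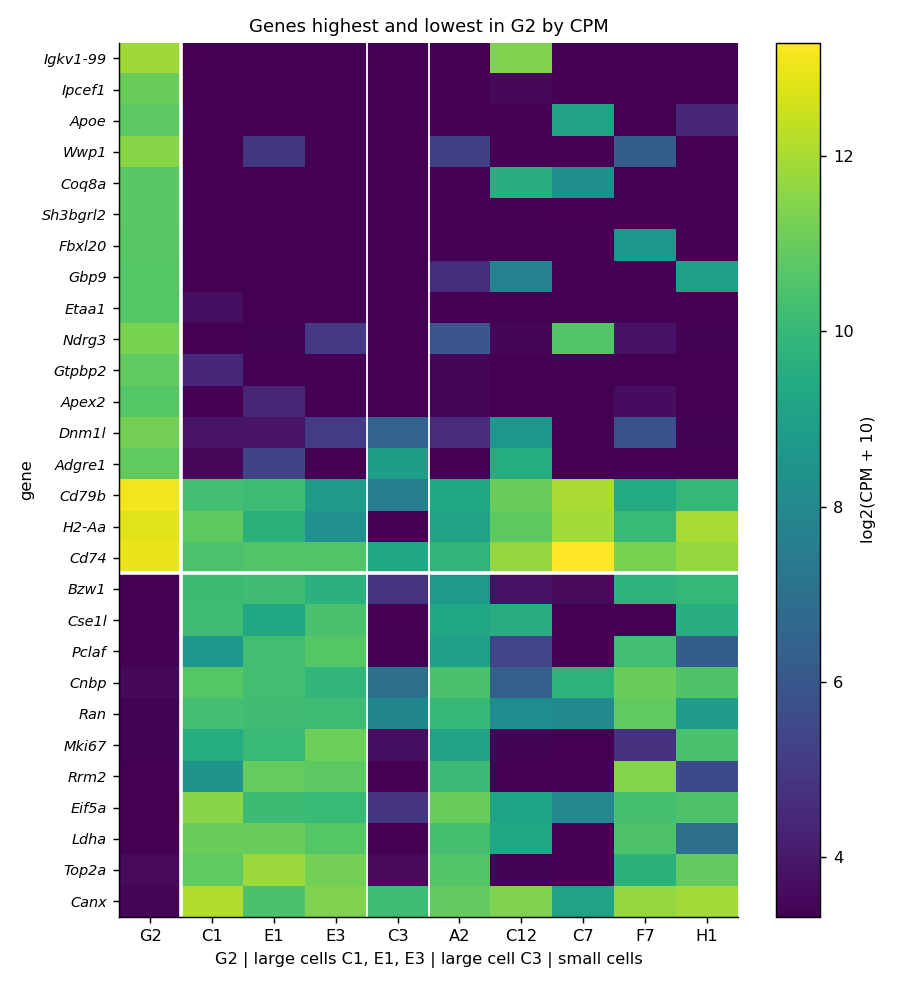
Levels as log2(CPM + 10) (color) of 28 genes (rows) in 10 cells (columns, with G2 at the left): the 17 named genes that were higher in G2, above the white line, and 11 that were lower. Igkv1-99 is bright in G2 and in the small cell C12 only, and the lower genes are dark in G2, with 0 to 1.79 CPM.

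The immunoglobulin genes mark a B cell's own receptor, since each B cell joins 1 light chain V segment for use. G2 had 52350 reads of Ighm, the IgM constant region, and 43893 of Igkc, the kappa constant region. It also had 13368 reads of Iglc2, a lambda constant region, so that both light chain types were read in it. Iglc2 was at 2392 CPM in G2, against 322 in C1, 3796 in E1 and 620 in E3. In CPM, Ighm was at 9367 in G2, against 5148 in C1, 11319 in E1 and 7907 in E3, and Igkc at 7854, against 1174, 0.317 and 3239. Its V segment with the most reads was Igkv1-99, at 20950 reads (3749 CPM), with no read in C1, E1 or E3. It was at least 5052-fold higher, and it was the gene with the largest ratio of all named genes. The other large cells used other segments: Igkv4-68 in C1 (1191 reads), Iglv1, a lambda segment, in E1 (62118 reads) and Igkv8-27 in E3 (12731 reads). C3 had no read for Igkc. The last 90 bases of the 4 segments are shown because the bases at their 3' ends differ between them. The segments were assigned by counts over whole genes, and these bases were not searched for in the reads. Capitals begin at the codon of the conserved cysteine before the third complementarity determining region.
Igkv1-99: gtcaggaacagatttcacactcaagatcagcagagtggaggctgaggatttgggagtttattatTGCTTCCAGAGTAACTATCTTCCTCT
Igkv4-68: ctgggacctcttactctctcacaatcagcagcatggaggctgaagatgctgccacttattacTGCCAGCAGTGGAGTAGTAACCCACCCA
Igkv8-27: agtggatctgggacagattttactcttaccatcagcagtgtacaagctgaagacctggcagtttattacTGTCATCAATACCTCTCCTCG
Iglv1: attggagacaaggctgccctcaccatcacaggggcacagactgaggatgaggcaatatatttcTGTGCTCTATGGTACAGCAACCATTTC
These are reference sequences from the GENCODE annotation of GRCm38, at chr6:68542333-68542422 (plus strand), chr6:69304834-69304923, chr6:70171809-70171898 and chr16:19085017-19085106 (minus strand), each in the coding exon that ends the V segment. From the cysteine codon on, the segments have 26, 28, 21 and 27 bases, and no 2 of them are alike. The small cell C12 was the only other cell with reads of Igkv1-99, at 15058 (2611 CPM). It also had 914 reads of the lambda segment Iglv3, against 2886 in G2 and 0 to 207 in every other cell. The kappa joining segment Igkj2 had 762 reads in G2 and 718 in C12, against 0 to 188 elsewhere. Of the other genes that were higher in G2, some had high levels in C12 too, among them Mzb1 with 2271 CPM, H2-T23 with 614 CPM and Dnm1l with 363 CPM. Others did not, such as Ipcef1 with 1.56 CPM in C12, and Wwp1 and Apoe with no read there. Variable segments share reads with near-identical relatives, so their single values are uncertain.

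Across genes, G2 correlated with the other large cells at values within the range of the small cells. Over the 5707 genes with a mean of at least 20 CPM in the 10 cells, the Pearson r of log2(CPM + 10) between G2 and the other large cells was 0.25 with C1, 0.25 with E1 and 0.27 with E3. Among C1, E1 and E3 it was 0.40 to 0.47. With small cells it was 0.35 for C7, 0.35 for C12, 0.31 for H1, 0.29 for A2 and 0.24 for F7, and it was 0.22 with C3. With the positive control, diluted bulk RNA of stimulated cells, it was 0.32. These correlations are across genes, which are not independent replicates, and they share the depth and detection of each library, so they carry no p-value. Of the genes present at 50 CPM in exactly 1 other cell besides G2, 27 were shared with C7, which is 15% of such genes in C7 and the largest number for any cell. C1, E1 and E3 shared 14, 9 and 13 with G2, or 2.97 to 4.01% of theirs.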

How the data were processed

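Viable cells were imaged and lysed on a Fluidigm C1 chip, and their RNA was amplified with SMARTer chemistry. Reads were aligned by the authors to mouse build m37 (Ensembl) with STAR. Counts were taken over the exons of each gene, and neither STAR's version nor a counting tool is named in these sources. The deposited table holds whole-number read counts for 37991 genes in 13 libraries. The authors deposited spike-in factors as a ratio to C1, from a log-log fit of synthetic RNAs, and other values, the relative volumes of 25 imaged cells. A further 28 columns of the same table, with values the authors adjusted from these counts and maxima of the size groups, were not used. The spike-in counts and the authors' correlations, expression scores, enrichment results and target list were not analysed here.

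CPM was the count over the sum of gene counts. Genes were called by the size rule given with the comparison, with no test. Intervals are at 95%, exact Poisson for sums and exact binomial (Clopper-Pearson) for shares, and a count of 0 was read as up to 3 counts. Depth was 3311235 to 6311782 counts per cell and 190 in the negative control. Doublets were not called. Symbols were matched for 32919 of 37991 identifiers, and 800 of 806 list entries were found. The members and lists were chosen with earlier results of these data known. Named genes were the markers Cd79b, Cd74, H2-Aa and Adgre1, the 12 higher and 12 lower genes with the largest ratio, the 6 largest on both scales, up to 3 called genes per list, and the immunoglobulin genes with most counts. Cdk1, Ccnb1, Gins4, Btk, Pik3cd, Cd79a, Mcl1, Fadd, Txnip, Foxo3, mt-Cytb, Igkj2 and the unmoved cell markers were named after their values were seen. Some genes that the rule names are not reported here. The rule for calls was run on simulated Poisson counts around a shared mean profile. Those counts held no loss of transcripts at capture and no variation between the reference cells. They do not show how the rule behaves in these cells. Alternatives used edgeR 4.0.16 (TMM) and DESeq2 1.42.0 (size factors) in R 4.3.3, other added constants, filters, depths and reference cells. Other steps ran in Python 3.11.15, with scipy 1.17.1 for the intervals, pandas 2.3.3 on numpy 2.4.6 for the tables, and matplotlib 3.10.9 for plots.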

Additional observations from a re-analysis of the deposited data

Results flagged for a closer look

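For 40 measures, the 5 large cells were searched for a cell that stands far from the rest, by the gap to its nearest neighbor as a share of the whole range (above 0.71). Of these measures, 6 had such a cell. The limit stands for about 1 in 20 in independent measures. These measures come from the same 5 cells and depend on each other, so the 6 cannot be set against that rate. G2 stood apart in 3. MHC class II genes took 2.45% of its counts, and the nearest cell was C1 with 0.708%. B cell receptor signaling took 2.30%, and the nearest cell was E3 with 0.767%. ER folding took 0.436%, and the nearest cell was C3 with 0.964%. C3 stood apart in the other 3, each time with G2 as the nearest cell. Its NF-κB list took 0.746% of counts, against 0.241% in G2. Its interferon list took 0.152%, against 0.0227% in G2, and its lysosome list 1.13%, against 0.358%.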

How the results depend on the processing

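No paired analysis was possible because the cells carry no shared replicate numbers and no test was run. The RNA content of G2 was 0.181 of the other large cells (0.163 to 0.215 with each left out, 0.222 with C3 kept) and 0.243 of the small cells. Genes detected were 0.589 of the others (0.580 to 0.602 with each left out), 0.520 with at least 10 reads, 0.56 at 1000000 counts and 0.612 at full depth. By CPM, 571 higher and 1858 lower genes became 613 to 629 and 2039 to 2138 with each cell left out, 279 and 294 with 100 CPM added, and 549 and 727 with C3 kept. The 87 higher and 1422 lower genes of the spike-in scale became 91 to 106 and 1311 to 1732 with each left out, 266 and 2385 with a constant of 10, and 86 and 511 with C3 kept. Scaling by TMM or DESeq2 gave 590 or 634 higher genes by CPM. Lists with a median above 0 numbered 7, and 6 to 10 with each cell left out. With C3 kept, Relb turned to -1.21 by CPM and the interferon list to -1.91. The next alternatives were chosen after seeing the data. With the filter on C1, E1 and E3 alone, 268 genes were higher by CPM and 17 on the spike-in scale. With the small cells as reference, 520 and 397 were lower, the interferon list turned to -3.02 and MHC class II to -0.11. The causes were not tested. Of 773 planned values for named genes by CPM, 721 kept their call, 51 lost it and 1 turned. Most of these genes were named for a large ratio or a call, so that this stability is partly built in. Over all genes, 15.8% of the lower and 48.9% of the higher calls by CPM stayed with 100 CPM added. With C3 kept, 36.1% and 87.2% stayed. In 1 cell, depth and capture limit every statement on a gene without reads.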
